A study of Mus musculus with 36 samples.

Results

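MEF cells (mouse embryonic fibroblasts) that carry the MSR-dCas9-Activator were compared with MEF cells that carry the MSR-dCas9-Control before any doxycycline was added. The libraries were taken by their labels, as the 3 uninduced replicates of each line, which makes 6 of the 36 libraries of the series. This comparison was chosen with earlier results of these data known. All genes and repeat families in these libraries were compared. In both lines a PiggyBac transposon brought in a doxycycline-inducible dCas9 and, on the same plasmid, a guide RNA against the major satellite repeat (MSR) that is expressed all the time. The Control expresses catalytically dead Cas9 alone, and the Activator expresses dCas9 fused to VPR, a joined set of the activation domains VP64, p65 and Rta. The cells were selected with hygromycin and kept as mixed cultures in medium free of tetracycline. The 2 uninduced groups are labelled untreated, and they differ in the construct and in being separately made lines. With 1 line for each construct, an effect of uninduced dCas9-VPR and a standing difference between the lines cannot be told apart.

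Major satellite repeats lie beside the centromere of mouse chromosomes, where they form pericentric heterochromatin marked by H3K9 methylation and bound by HP1 proteins. Minor satellite repeats lie at the centromere itself, on which the kinetochore is built. Both are A/T-rich tandem arrays that are transcribed at low levels in fibroblasts, and tetracycline promoters can give some expression without inducer, which is known as leak.

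Each uninduced library held between 32443357 and 57371803 gene counts, and repeat families made up 19.4% to 23.3% of all counts. Of 12 fibroblast markers 11 could be tested and 0 passed adjusted p under 0.05 between the lines, where 1.22% of all genes tested passed. Normalised counts were scaled by the trimmed mean of M-values (TMM) to a common gene library size. The summed fibroblast markers ran from 1020000 to 1130000 in Control and from 1070000 to 1140000 in Activator libraries, with Col1a1 the highest at a mean of 571000. The median log2 fold change of the 11 was 0.369, beside 0.0282 for all genes tested, with values from -0.326 to 1.57. For 6 of the 11 the groups did not overlap, beside 8.57% of all genes with the Activator higher and 7.48% lower. Of the markers of other cell types, 3 of 9 epithelial markers (Epcam, Krt5 and Cldn3) had no counts, as had the blood markers Cd3e and Hbb-bs, and Myod1 and Sox2. Other members of these lists had counts. Summed blood markers, with Csf1r the highest, ran from 560 to 619 in Control and from 531 to 558 in Activator libraries. Summed neural and glial markers ran from 2610 to 3160 against 3030 to 3130, and skeletal muscle markers from 165 to 170 against 214 to 284. Pluripotency markers ran from 284 to 618 against 437 to 565. Summed epithelial markers ran from 38.3 to 56.4 against 95.9 to 136, and summed adipocyte markers, which are mostly Lpl, from 7760 to 9560 against 10400 to 12100. In bulk RNA, a change in the number of cells of a type and a change in RNA per cell cannot be told apart. Gm26917, a noncoding locus with rRNA-like content, took 0.931%, 3.24% and 5.77% of gene counts in the Control replicates and 1.92%, 6.17% and 6.43% in the Activator replicates and the ranges of the lines overlapped. Among the later libraries, which share the estimate of the spread for genes, Control replicate 1 at 6 h after removal of doxycycline stood apart in the called genes. It lay outside the range of the other 17 Control libraries for 32 of the 58 genes called below, against 0 to 12 for each of those. Over all genes with a mean above 100 it did not stand apart, at 19% against 3.64% to 22.9% for each of those libraries. Gene results that rest on it are given with and without it, an alternative chosen after seeing the data. Chromosome shares are given only with it.

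Satellite transcripts were higher in the uninduced Activator line. The sequence of Gm10800, a gene model made of satellite repeat, is given because its count rose together with the repeat families. It lies at chr2:98666547-98667301 on the minus strand (GRCm38), and its annotated exons are coding throughout. The first 300 of its 660 transcript bases (GENCODE M21, spliced, 5′ to 3′) are printed with capitals for runs of 20 bases that are found, on either strand, in 13 of the 14 gene models listed as satellite-containing.
Gm10800-201: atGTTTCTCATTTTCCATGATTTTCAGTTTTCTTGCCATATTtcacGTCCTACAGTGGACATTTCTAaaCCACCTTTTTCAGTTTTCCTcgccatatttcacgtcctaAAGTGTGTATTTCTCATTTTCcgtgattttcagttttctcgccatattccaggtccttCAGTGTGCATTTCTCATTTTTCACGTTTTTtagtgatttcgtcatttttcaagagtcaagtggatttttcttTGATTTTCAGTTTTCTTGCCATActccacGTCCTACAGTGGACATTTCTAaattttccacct
Of the 300 bases 176 are in such runs. The transcript is 64.1% A or T. The gene model without these runs was Gm26917, which shared 0% of its 12-base words with Gm10800 and is 30.9% A or T, while the other 12 models shared 51.2% to 68.9%. Gm26917 had been listed with the satellite genes, and its sequence goes against that.

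For GSAT_MM, the major satellite and the target of the guide, the normalised counts were 1597, 1483 and 1495 in the Control replicates and 4337, 2271 and 4005 in the Activator replicates. All 3 Activator libraries were above all Control libraries, and the Activator libraries were spread 1.91-fold against 1.08-fold for Control. The ratio of the means was 2.32, and by replicate pair it was 2.72, 1.53 and 2.68. With the replicate number as a block, edgeR's quasi-likelihood test gave a log2 fold change of 1.17 ± 0.12 (SE, n = 3 per group) and an adjusted p of 1.64e-19. The two-sided exact permutation test gave p = 0.1, which is the smallest that 3 against 3 allows.

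The minor satellite SYNREP_MM was lower in count and showed the larger relative difference. Its normalised counts were 61.9, 72.1 and 75.2 in Control and 703, 401 and 449 in Activator libraries, and the groups did not overlap. The ratio of the means was 7.43, and the fitted log2 fold change was 2.90 ± 0.16 (SE) with an adjusted p of 5.13e-66 by edgeR. The exact permutation test again gave its smallest value of p = 0.1.

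These levels were small beside those of induced cells. Scaled over all 36 libraries, the uninduced Activator mean was 0.787% of the induced Activator mean for GSAT_MM and 2.61% for SYNREP_MM, after 6 h of doxycycline at 10 ng/ml. The induced GSAT_MM counts were 102100, 156100 and 1092000 in ascending order, and without the highest library, Activator replicate 3, the share was 2.74%. For SYNREP_MM it was 2.82% without its highest library, Activator replicate 1. In the Control line the GSAT_MM mean was 1517 before and 1403 after 24 h of doxycycline.

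How firmly GSAT_MM stands depends on the error that is assigned to it. For 1407 of the 1422 repeat families tested, the prior for the spread had no upper limit, so the p-value rested on the trend over families and not on the family's own replicates. When genes and repeat families were fitted together, a setting chosen after seeing the data, the adjusted p of GSAT_MM was 0.34 and that of SYNREP_MM 0.000426. With all 36 libraries in the fit it was 1 for GSAT_MM and 0.000413 for SYNREP_MM.

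**Figure D1:**
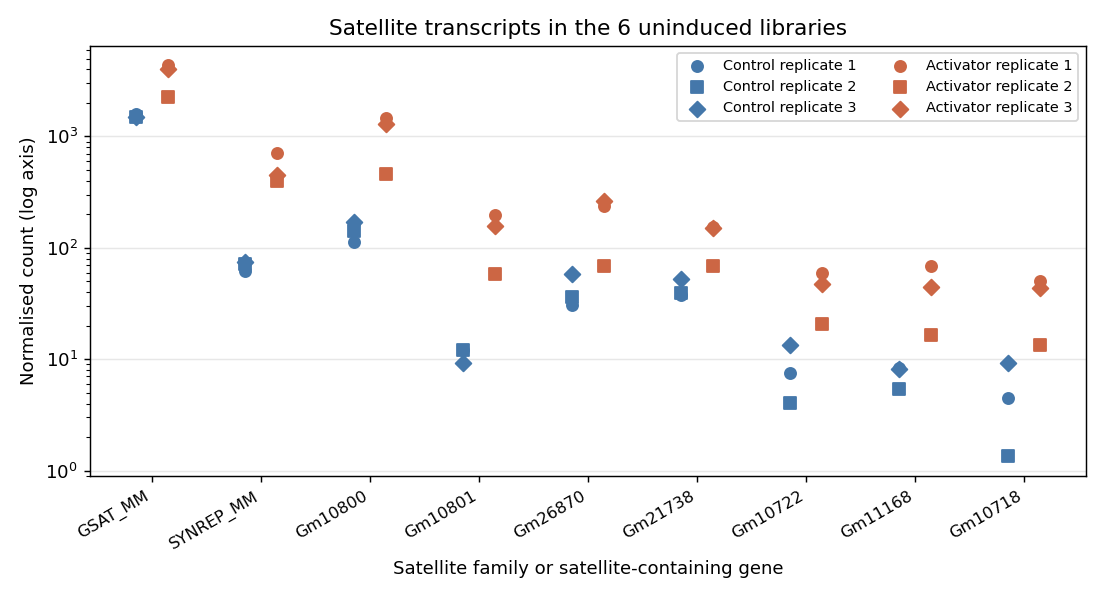
Normalised counts (log axis) of the major satellite GSAT_MM, the minor satellite SYNREP_MM and 7 satellite-containing genes in each of the 6 uninduced libraries, with 1 point per library and the replicate shown by its shape. For GSAT_MM the Activator points lie from 2271 to 4337 and the Control points from 1483 to 1597, and Activator replicate 2 is the lowest Activator point of each item.

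Of the 14 gene models listed as satellite-containing, 2 rose. Gm10800 had 114, 142 and 169 normalised counts in Control and 1476, 463 and 1295 in Activator libraries, which gave a log2 fold change of 3.01 ± 0.74 (SE) and an adjusted p of 0.0411. Its neighbour Gm10801 (chr2:98662237-98664083) had 12.0, 12.1 and 9.27 against 198, 57.8 and 157, with a log2 fold change of 3.70 ± 0.68 (SE) and an adjusted p of 0.00369 by edgeR. The other 12 did not pass adjusted p under 0.05 in the fit of all 36 libraries, in which 1.22% of all genes tested passed. Gm10800 passed no longer without any of the Control replicates or without Activator replicate 1 or 3 (adjusted p from 0.0677 to 0.241), nor without the replicate block (0.166). Gm10801 passed no longer without Control replicate 3 (0.0776) or without the block (0.0569).

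Apart from Gm26917, the models that did not pass were at low counts. Gm26870, a lincRNA model on chromosome 9, had 30.8, 36.3 and 57.7 normalised counts in Control and 237, 68.1 and 265 in Activator libraries. Gm21738 on chromosome 14 had 37.6, 39.0 and 52.5 against 152, 68.1 and 151. In both, Activator replicate 2 was the lowest of the Activator libraries and still above every Control library. The median log2 fold change of the 14 models was 2.41, beside 0.0282 for all genes tested, and the values ran from 0.692, that of Gm26917, to 3.70. Because the other 13 models are near copies of one repeat, reads can be split among them, and they are not independent of each other or of GSAT_MM. In a fit of the 6 uninduced libraries alone 6 of 8 models passed, and Gm10800 did not (adjusted p = 0.127, edgeR).

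The other satellite families gave no such difference. IMPB_01 had log2 fold change 0.04 ± 0.10 (SE), MMSAT4 -0.05 ± 0.11 and ZP3AR 0.00 ± 0.11, none past the test. SUBTEL_sa had 67.8, 48.9 and 77.2 normalised counts in Control and 82.2, 74.3 and 124 in Activator libraries, with overlapping groups and an adjusted p of 0.615. LINE-1 L1Md_A, a young retrotransposon family, had a log2 fold change of 0.19 ± 0.10 (SE), and the endogenous retrovirus IAPEz-int 0.20 ± 0.10, and neither passed.

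Over all repeat families, 8 of 1422 were called (0.563%, adjusted p under 0.05 and log2 fold change beyond 0.5), 7 higher (0.492%) and 1 lower (0.0703%) in the Activator line. Without the fold limit 13 passed (0.914%), 11 higher (0.774%) and 2 lower (0.141%). The groups did not overlap for 2.25% of families with the Activator higher and for 1.41% with the Activator lower. Of 131 ERV1 families 4 passed, all higher, namely RLTR6_Mm, RLTR6B_Mm, RLTR6-int and MMVL30-int, the interior of the VL30 retrotransposon. MMVL30-int had 18380, 14880 and 12410 normalised counts in Control and 19340, 23730 and 21910 in Activator libraries, with a log2 fold change of 0.52 ± 0.11 (SE) and an adjusted p of 0.000245. Its groups did not overlap, but the gap between the highest Control and the lowest Activator library was smaller than the spread within Control.

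Of 274 ERVK families 4 passed, all higher, with log2 fold changes from 0.38 for MMERVK10C-int to 0.63 for IAPA_MM-int. The SSU-rRNA_Hsa family, which collects small-subunit rRNA reads, was lower, with 2844, 3199 and 4167 against 2578, 1312 and 2725 normalised counts and a log2 fold change of -0.67 ± 0.12 (SE, adjusted p = 7.66e-05). The libraries were depleted of rRNA, and the part of that step in these counts was not tested. When repeat families were fitted together with genes, SYNREP_MM was the only family called, and the ERV and rRNA families were not. MMVL30-int also lost its call without replicate 2 or 3 (adjusted p of 0.579 and 1), and SSU-rRNA_Hsa without replicate 2 (0.204, edgeR).

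Among genes, 58 of 28542 were called (0.203%), which required a mean normalised count above 100 over the 6 libraries, a fold beyond 2 and adjusted p under 0.05. Of these 51 were higher (0.179% of the genes tested) and 7 lower (0.0245%) in the Activator line. At adjusted p alone 347 genes passed (1.22%), 246 higher (0.862%) and 101 lower (0.354%). In normalised counts the groups did not overlap for 8.57% of all genes with the Activator higher and for 7.48% with the Activator lower. Scaled to the mitochondrially encoded mRNAs, 143 genes passed and 83.2% of them were higher, against 70.9% in the TMM scaling.

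**Figure D2:**
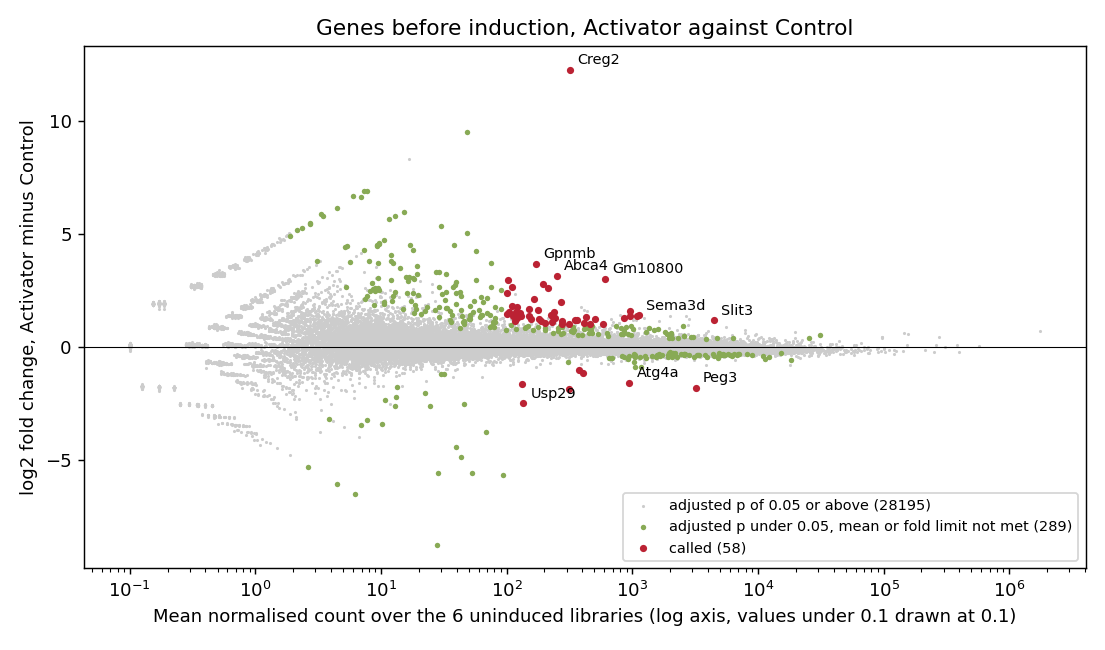
Each point is 1 of 28542 genes, with the mean normalised count over the 6 uninduced libraries (log axis) against the fitted log2 fold change, Activator minus Control. Most points lie near 0, the 58 called genes are in red, and Creg2 stands apart at the top because the Control libraries hold no count of it, so that its height depends on the small count added in the fit.

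Creg2, a secreted glycoprotein of the CREG family, was present in one line and absent from the other. It had 0 counts in all 3 Control libraries and 656, 685 and 582 normalised counts in the Activator libraries (1900 counts in all). Against a floor of 3 counts over the Control group it was at least 653-fold higher. It is encoded at chr1:39618406-39651474 on the minus strand (GRCm38).

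Gpnmb, a transmembrane glycoprotein of melanosomes and lysosomes, had 24.1, 17.5 and 30.9 normalised counts in Control and 264, 405 and 291 in Activator libraries, a log2 fold change of 3.67 ± 0.42 (SE, adjusted p = 4.76e-06). Abca4, a lipid transporter of photoreceptor discs, had 57.1, 51.1 and 43.3 against 413, 461 and 484, a log2 fold change of 3.15 ± 0.19 (adjusted p = 3.36e-12). Neither gene had overlapping groups, which the rule for naming genes required. For both the lowest Activator library was far above the highest Control library.

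Flrt3, a cell adhesion protein that binds Unc5 receptors, rose from 23.6 ± 6.6 to 180 ± 20 (mean ± SD of normalised counts, n = 3). Gnao1, a G protein alpha subunit abundant in neurons, had 63.1, 48.4 and 70.0 in Control and 274, 227 and 302 in Activator libraries, a log2 fold change of 2.13 ± 0.17 (SE, adjusted p = 1.39e-09). Sgk3, a kinase of the SGK family, and Cobl, an actin nucleator, rose with log2 fold changes of 2.63 ± 0.35 and 2.61 ± 0.33. Megf6 rose by 2.36 ± 0.33 on the same scale, and Sh3rf2 by 1.98 ± 0.33. Epb41l4b, Xlr and Epn3 rose by between 1.68 and 1.79, of which Xlr has close copies on the X chromosome among which reads can be split. Epn3 lost its call without Control replicate 2 (adjusted p = 0.0523, edgeR).

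The transcription factor gene Zfhx4 had 38.3, 55.1 and 56.6 normalised counts in Control and 353, 313 and 344 in Activator libraries, with a log2 fold change of 2.76 ± 0.60 and an adjusted p of 0.0172. Ulbp1, a ligand of the NKG2D receptor, had 74.4, 96.8 and 86.5 against 316, 189.8 and 309 (1.64 ± 0.39, adjusted p = 0.0332). The groups of these genes did not overlap, which the rule for naming genes required. Zfhx4 nevertheless lost its call without any of the Control replicates and without Activator replicate 3, with adjusted p of 0.0674 to 0.128 by edgeR. Ulbp1 lost it without any single library, at 0.0547 to 0.222. Both genes were far from the other Control libraries in Control replicate 1 at 6 h (Zfhx4 684.1 against 33.6 to 71.1, Ulbp1 393 against 40.7 to 109), and in the fit without that library their adjusted p before induction were 2.41e-10 and 5.56e-05 by edgeR. That fit called 61 genes, 57 of them among the 58.

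**Figure D3:**
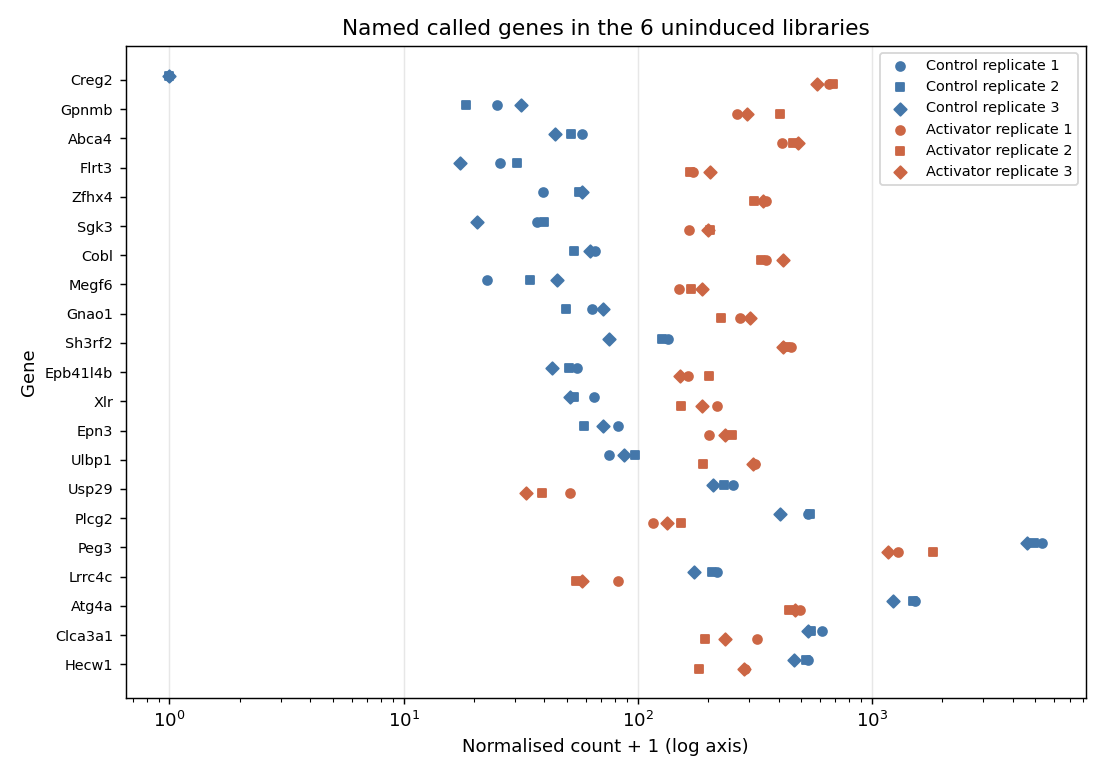
Normalised count plus 1 (log axis) of the named called genes other than Gm10800 in each uninduced library, with Control points in blue and Activator points in orange. In every gene drawn the 2 groups are apart, which the rule for naming genes required. Creg2 is at 0 in the Control libraries and Peg3 between 4611 and 5333 there.

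The 7 genes that fell included a neighbouring pair of imprinted genes. Peg3, a paternally expressed zinc finger protein, had 5333, 4925 and 4611 normalised counts in Control and 1294, 1828 and 1168 in Activator libraries, and its log2 fold change was -1.81 ± 0.12 (SE, adjusted p = 2.88e-11). Usp29, a paternally expressed ubiquitin protease, had 254, 233 and 209 against 50.5, 38.2 and 32.4, with a log2 fold change of -2.51 ± 0.22 (adjusted p = 1.64e-08). The Activator libraries held 0.289 and 0.174 times the Control mean of the 2 genes, and no library of one line came near the other line.

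Peg3 (chr7:6703892-6730431, minus strand) and Usp29 (chr7:6730578-6967219, plus strand) point away from each other, and their promoter is shown because the genes moved together. The 250 bases before the Peg3 start, chr7:6730420-6730669 on the minus strand (RefSeq, GRCm38.p6), share 163 bases with the corresponding window of Usp29. Capitals mark CG, the dinucleotide at which mammalian DNA is methylated.
Peg3 promoter: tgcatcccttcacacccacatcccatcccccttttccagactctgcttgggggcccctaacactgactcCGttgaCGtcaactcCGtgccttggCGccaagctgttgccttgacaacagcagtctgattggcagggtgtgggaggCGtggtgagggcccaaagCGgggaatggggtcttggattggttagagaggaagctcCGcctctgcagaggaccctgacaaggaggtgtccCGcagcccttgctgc
It holds 8 CG, and 43% of 32851 promoter windows of the same length hold as many or more. The median is 6. DNA methylation was not among the data.

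The opposite direction was seen in another imprinted cluster. Meg3 and Rian, maternally expressed noncoding RNAs of the Dlk1-Dio3 region on chromosome 12, were nearly silent in Control libraries. Meg3 had 1.5, 2.69 and 0 normalised counts in Control and 50.5, 71.2 and 54.7 in Activator libraries (log2 fold change 5.34 ± 0.79, adjusted p = 0.000135). Rian had 1.5, 6.72 and 1.03 against 70.7, 105 and 103 (5.02 ± 0.47, adjusted p = 4.19e-08). Both passed adjusted p and were not called, since their means were under 100. The 250 bases before the Meg3 start nearest to the annotated gene, chr12:109540746-109540995 on the plus strand, hold 10 CG, shown in capitals, and 37.8% of promoter windows hold as many or more.
Meg3 promoter: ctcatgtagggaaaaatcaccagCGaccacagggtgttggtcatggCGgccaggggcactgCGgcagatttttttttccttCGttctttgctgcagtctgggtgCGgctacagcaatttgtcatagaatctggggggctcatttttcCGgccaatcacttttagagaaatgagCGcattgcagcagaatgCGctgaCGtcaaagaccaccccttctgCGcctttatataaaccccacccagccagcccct
Of 28 listed imprinted genes 23 were tested, and Peg3, Usp29, Meg3 and Rian were the 4 that passed, where 1.22% of all genes did. The list was chosen with earlier results of these data known. Peg3 and Usp29 are neighbours, as are Meg3 and Rian, so the 4 are not independent and their count is a description. The median of the list was 0.0285, beside 0.0282 for all genes, and Igf2 (40180 against 43550), Igf2r, Gnas, Kcnq1ot1 and Airn did not pass.

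The other falls were of unrelated function. Plcg2, a phospholipase of immune receptor signalling, had 535, 542 and 407 normalised counts in Control and 116, 153 and 133 in Activator libraries, a log2 fold change of -1.89 ± 0.38 (SE, adjusted p = 0.00725). Atg4a, a protease of autophagy encoded on the X chromosome, had 1526, 1504 and 1235 against 494, 444 and 470.1 (-1.59 ± 0.16, adjusted p = 1.62e-07). Lrrc4c, a synaptic adhesion protein, fell by 1.63 ± 0.30 on the log2 scale, Clca3a1 by 1.18 ± 0.23 and Hecw1, a ubiquitin ligase, by 1.02 ± 0.18. Clca3a1 has close copies beside it, among which reads can be split, and it lost its call without Activator replicate 2 (adjusted p = 0.0685, edgeR).

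Some genes were almost confined to the libraries of one line, and they were named after their values were seen. Adam28, a metalloprotease, had 0 counts in Control libraries and 94.6, 102 and 92.7 normalised counts in Activator libraries, at least 97.9-fold higher against the floor of 3 counts. Gm15759 went the other way, with 53.4, 64.5 and 49.4 normalised counts in Control and 0 in all Activator libraries, at least 54-fold lower. Myt1, a neural zinc finger transcription factor, had 167 counts in Control and 3 in Activator libraries, a ratio of 54 with a counting interval (95%, exact) from 18.2 to 264. At adjusted p, 4 genes had at most 3 counts in one line and a mean of at least 50 in the other, and the fourth was Creg2.

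Some of the genes that passed lay side by side. Of 346 placed genes at adjusted p under 0.05, 58 stood in 27 runs whose neighbours were within 100000 bases. In 23 of the runs all members had the same direction, while 70.9% of all genes that passed were higher. No such count was made over all genes tested, so the runs are a description. Adamdec1 lies next to Adam28 on chromosome 14 and was at 0 in Control and 13.9 in Activator libraries. Near the end of chromosome 2, Lkaaear1 (76.3 against 3.37 mean normalised counts), the opioid-related receptor gene Oprl1 (84.5 against 2.73) and Myt1 fell within chr2:181696793-181827797, and Rgs19 beside them fell from 2612 to 1897. Overlapping genes such as Aox4 with Gm15759, Sfrp2 with Gm26771 and AI662270 with Gm11427 may share reads, since the strand setting of the counting was not given in the sources used here.

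Few genes of the lists for heterochromatin, signalling, growth and other groups passed, but their share was above that of all genes. Over 31 lists, 19 of 452 distinct genes tested passed adjusted p (4.2%, beside 1.22% of all genes), 16 higher and 3 lower. In 18 lists no gene passed, and the lists were chosen with earlier results of these data known. In the list of HP1 and pericentric heterochromatin proteins 0 of 15 passed (median log2 fold change -0.162), and 0 of 11 did among the writers of H3K9 and H4K20 methylation (median -0.0275). Values of the first list ran from -0.828 for Hmga2 (adjusted p = 0.239, edgeR) to 0.0476. Those of the second ran from -0.386 for Suv39h2 (adjusted p = 0.0564, edgeR) to 0.228. The H3K9 methyltransferase gene Suv39h1 had 2996, 2837 and 2974 normalised counts in Control and 2719, 2269 and 2402 in Activator libraries, apart by range but at an adjusted p of 0.102. Among the DNA methylation machinery 0 of 7 passed, with Dnmt1 at 13170, 12990 and 12160 against 12880, 9956 and 10040. By unadjusted p, 10.4% of all genes tested were under 0.05.

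The p65 part of VPR derives from an NF-kappaB subunit, and its gene Rela did not pass, with 2938, 2736 and 2562 against 2838, 2639 and 2703 normalised counts. Of NF-kappaB subunits and inhibitors 0 of 12 passed, and of its cytokine and chemokine targets 0 of 14, where 1.22% of all genes tested passed. Of 29 interferon-stimulated genes 1 rose, the RNA sensor gene Ifih1, with 6.76, 5.38 and 15.5 against 60.6, 73.2 and 73.7 (log2 fold change 2.85 ± 0.70, adjusted p = 0.0394). Of 22 p53 target genes 1 rose, the desmosomal Perp (5.49 against 108 mean normalised counts, adjusted p = 2.97e-07). Of 32 mitotic and S-phase genes 1 fell, the cyclin gene Ccne1 (log2 fold change -0.43 ± 0.11, adjusted p = 0.0358), while the list's median was -0.199. No gene passed among 28 Hox genes or 20 immediate early genes. In lists this small, counts of 0 or 1 cannot be told apart from the 1.22% of all genes.

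Some matrix genes rose. Of 34 collagen and matrix genes 4 rose and 0 fell, where 0.862% of all genes tested rose, and the median log2 fold change was 0.211 beside 0.0282 for all genes. Col6a3, a chain of collagen VI, had 446, 480 and 605 normalised counts in Control and 925, 952 and 1057 in Activator libraries (0.94 ± 0.21, adjusted p = 0.0135). The fibrillin gene Fbn2 and the metalloproteases Mmp3 and Mmp13 rose from 2.88, 22.1 and 36.6 to 72.9, 102 and 125 in the means. Col1a1 had 522600, 622000 and 553200 against 583300, 584600 and 562100, with overlapping groups, and did not pass. Phf19 of the Polycomb list, the transcription factor Prrx2, the cystine transporter Slc7a11, Usp17la, Krt14 and Tek were each the 1 member of its list that rose.

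Genes on 2 chromosomes were shifted as a block. Among genes with a mean above 100, the median log2 fold change was -0.23 over 336 genes on chromosome 18 and -0.146 over 1045 genes on chromosome 2, beside -0.0276 over all 13336 such genes. On chromosome 18, 89.3% of these genes were below 0, against 56.5% of all. Of the 78 genes in this set that were lower at adjusted p, 51 lay on chromosomes 2 and 18. Sh3rf2, Onecut2 and Dtna were called higher on chromosome 18 despite its median.

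The shift ran along the whole of both chromosomes. In windows of 20000000 bases the median was between -0.258 and -0.156 in each of 5 windows of chromosome 18 and between -0.199 and -0.105 in each of 10 windows of chromosome 2. Of the gene counts placed on chromosomes, chromosome 18 held 2.47%, 2.38% and 2.3% in Control and 2.08%, 2.07% and 2.01% in Activator libraries. Chromosome 2 held 7.17% to 7.59% in Control and 6.5% to 6.99% in Activator libraries. No other chromosome had shares whose ranges lay apart. These shares are a description, without a test, and DNA copy number was not measured.

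**Figure D4:**
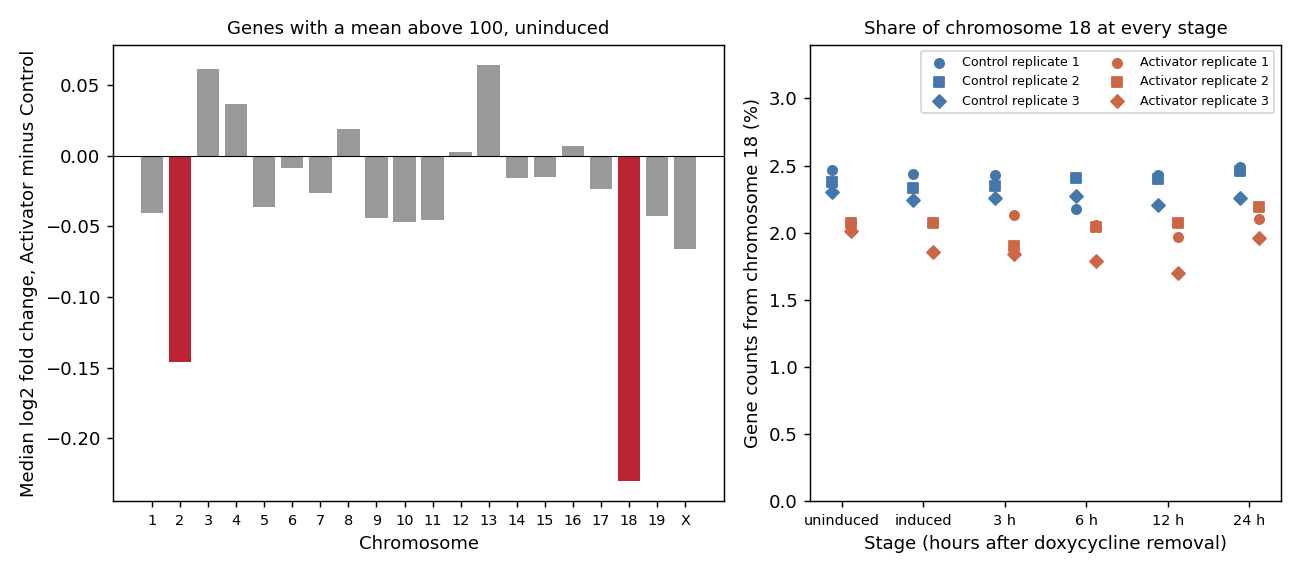
Left, the median log2 fold change (Activator minus Control, uninduced) of genes with a mean above 100 on each chromosome, with chromosomes 2 (-0.146) and 18 (-0.23) in red. Right, the share of gene counts from chromosome 18 in each of the 36 libraries by stage. The Activator points lie below the Control points at all 6 stages with the genes listed as satellite-containing, Gm26917 among them, counted.

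The later libraries did not enter the fold change that called the genes, although they shared the estimate of the spread, and they show which differences were present again. At these stages the Control had received doxycycline for 24 h and the Activator for 6 h, so construct, induction time and line differ together. Of the 51 genes that were higher, 38, 38, 32, 35 and 35 were higher at adjusted p after induction and 3, 6, 12 and 24 h after removal of doxycycline. Among all genes tested, 31.6%, 39.3%, 41.1%, 42.2% and 36.4% were higher at these stages, and 25.8%, 31.7%, 33.3%, 33.1% and 26.3% were lower. Among genes of a mean above 100, as the called genes are, 19.5%, 24.9%, 25.2%, 23.4% and 16.4% were higher. Of the 7 lower genes 7, 6, 5, 7 and 7 were lower again, against 39.2%, 46.5%, 49.5%, 52.4% and 46.9% of such genes.

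Without Control replicate 1 at 6 h, 41 of the 51 were higher and 7 of the 7 lower at 6 h, against 22.8% and 47.4% of genes with a mean above 100.

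Of the 58 genes 27 passed in the same direction at all 5 later stages and 5 at none of them, and 32 and 1 (Slfn9) in the fit without that library. Peg3 was steady, with a mean from 1383 to 1538 normalised counts in the Activator and from 4307 to 5489 in the Control groups at all later stages. Creg2 was at 0 in all Control libraries of every stage except 1 library at 12 h (2.05 normalised counts), and in the Activator line its mean was 385 after induction, 101 at 6 h, 32.9 at 12 h and 80.2 at 24 h. Meg3, Rian, Perp, Adam28, Gpnmb, Abca4, Gnao1 and Xlr were higher at all 5 stages, while Zfhx4, Slfn9, Gm26771, Gm15398 and Gm14139 were the 5 genes that were higher again at none. At 6 h Zfhx4 had 684.1, 43.3 and 56.2 normalised counts in the Control replicates and 61.8 to 83.9 in Activator libraries, so that Control replicate 1 lay above and the other two below every Activator library. The fitted log2 fold change there was -1.79 ± 0.60 (adjusted p = 0.0099), and without that library it was 0.59 ± 0.24 (adjusted p = 0.0311). Slfn9 and Gm14139 also had negative values at 6 h (-1.02 ± 0.35 and -0.84 ± 0.29) that passed only with that library, in which they had 391 and 246 normalised counts against 85.7 to 157 and 63.2 to 98.2 in the other Control libraries. Plcg2 was at 41.0 in it, against 362 to 577. Myt1, nearly absent from the uninduced Activator libraries, was higher in the Activator line at 6 h, by 1.44 ± 0.44 with and 0.98 ± 0.40 without that library (adjusted p = 0.00434 and 0.0312).

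Chromosome 18 kept its lower share in the Activator line at all 6 stages, without overlap between the lines, with log2 ratios of the mean shares from -0.294 to -0.204. Chromosome 2 did so before induction and at 3 h, and at the other stages its ranges overlapped. These shares count satellite-containing genes, and Gm10800 on chromosome 2 alone took 0.12% to 2.54% of gene counts in the induced and later Activator libraries. They also count Gm26917 on chromosome 17, which was listed with those genes. At 12 h its mean was 5976000 normalised counts in Activator and 1547000 in Control libraries. All 14 listed models, Gm26917 among them, were then left out, a choice made after seeing the data. Without them chromosome 2 was lower without overlap at all 6 stages, with log2 ratios from -0.16 to -0.0797. Chromosome 18 was then lower without overlap at 4 stages, with overlapping ranges at 6 and 12 h and log2 ratios from -0.192 to -0.0627. The parts of Gm26917 and of the other models in these changes were not tested. Before induction the ratios were -0.115 for chromosome 2 and -0.192 for chromosome 18. At 6 h chromosome 18 held 2.21% to 2.47% in Control and 2.17% to 2.31% in Activator libraries without the models. Control replicate 1 at 6 h was the lowest Control library of that stage with the models counted, at 2.18% against 2.41% and 2.27%. Its part in the overlap at 6 h was not tested.

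**Figure D5:**
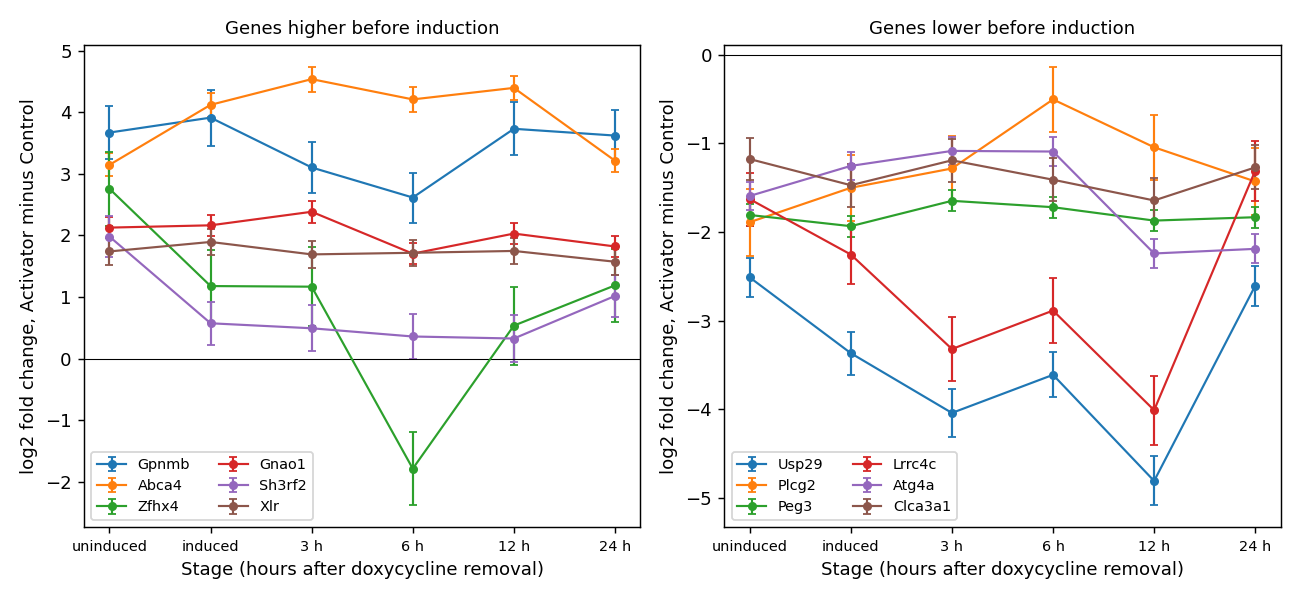
Fitted log2 fold change, Activator minus Control, with its standard error, for 6 genes that were higher and 6 that were lower before induction, at the uninduced and induced stages and at 3, 6, 12 and 24 h of washout. Peg3 stays between -1.93 and -1.65 throughout, and the value of -1.79 for Zfhx4 at 6 h rests on Control replicate 1 of that stage, without which it is 0.59.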

How the data were processed

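Total RNA of 36 MEF libraries was depleted of rRNA and sequenced as paired-end reads. The authors trimmed the reads at a quality of 20 with cutadapt, mapped them with STAR to the GRCm38 genome, and used TEtranscripts to count reads over genes and over families of repeats. The deposited values are counts, without normalisation. The annotation release, strand setting and sharing of multi-mapped reads are not given in the sources used here. Of 54842 genes 54495 matched GENCODE M21. Beside them are 1561 repeat families, and 1 entry without a name (at most 0.00452% of a library) was left out.

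Genes were tested with edgeR 4.0.16 in R 4.3.3 (quasi-likelihood, robust, TMM, filterByExpr) over all 36 libraries, in 12 groups with the replicate number as a block, as in the study's design. Repeat families were tested in the 6 uninduced libraries with the same block and the library sizes and TMM factors of genes. P-values were adjusted by Benjamini-Hochberg, and each SE was taken from the log2 fold change and the F statistic. Genes were called at a mean above 100, a fold beyond 2 and an adjusted p under 0.05, and repeat families at a log2 fold change beyond 0.5 and an adjusted p under 0.05. DESeq2 1.42.0 was an alternative. The scripts were tested on simulated data. The simulated counts had a single spread shared by all genes or all families and no replicate effect, and changes were placed only at higher counts. The simulation therefore does not bear on items whose own spread differs from that of the others, such as GSAT_MM. With log2 changes of 1.5 the gene fit (25981 genes) recovered 100% of 99 changed genes with 5 false calls in all, and the repeat fit (1425 families) recovered 100% of 96 with changes of 0.75, with 13 false calls in all.

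Named were the satellite families, L1Md_A, IAPEz-int and Rela, the 5 repeat families of largest rise and fall whose mean reached 100, the 15 genes of largest rise and 10 of largest fall whose groups do not overlap, called list members and satellite-containing genes. Others are counts, or were chosen after their values were seen, as were list members that passed, neighbours and chromosome windows. The libraries and lists were chosen with earlier results of these data known. Replicate numbers were used to pair the samples. Between the lines, deviations of same-numbered libraries correlated at 0.346, 0.502 and 0.511 over 13336 genes, and those of other pairs at -0.464 to -0.0398. With 3 libraries per line the deviations depend on each other, so these values do not establish the pairing. P-values measure the spread between replicates of single lines, and intervals cover counting error only. Libraries of the MSR-dCas9-Repressor line were not analysed here.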

Additional observations from a re-analysis of the deposited data

Results flagged for a closer look

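The difference between Activator and Control changed with induction for some items, as tested by the interaction in edgeR (Activator minus Control in induced cells, less the same in uninduced cells, on the log2 scale, adjusted p under 0.05). It was 6.71 ± 1.19 (SE) for GSAT_MM and 5.15 ± 0.26 for SYNREP_MM. For the satellite-containing genes it was 7.65 for Gm10800, 6.81 for Gm10801, 7.14 for Gm21738, 6.99 for Gm26870, 5.49 for Gm10722, 6.98 for Gm10718, 6.92 for Gm10719, 6.94 for Gm11168, 8.01 for Gm10717 and 7.84 for Gm17535. The satellite families MMSAT4 (-1.05), SUBTEL_sa (-1.32) and ZP3AR (-0.65) moved the other way, as did Rela (-0.407 ± 0.127, adjusted p = 0.0154). The Control was induced for 24 h and the Activator for 6 h, so the difference also holds that of the induction times.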

How the results depend on the processing

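SYNREP_MM passed adjusted p under every alternative run, with log2 fold changes from 2.56 to 3.09. GSAT_MM kept its direction in all and lost its call under 5: 1.22 with scaling to the mitochondrially encoded mRNAs (adjusted p = 0.113), 1.15 with TMM from repeat counts (0.317) or with the 12 uninduced and induced libraries (1), 1.2 with all 36 libraries (1) and 1.17 fitted together with genes (0.34). By DESeq2 its adjusted p was 0.00181.

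The 8 called repeat families became 5 with mitochondrial scaling or DESeq2, 3 without the replicate block, 13 without the fold limit, 2 with a log2 limit of 1, and 1 with TMM from repeat counts, with 12 or 36 libraries, or fitted with genes. Without replicate 1, 2 or 3 they were between 3 and 6. The 58 called genes became 37 with mitochondrial scaling, 179 with no filter or minimum mean, 347 at adjusted p alone and 166 with a minimum mean of 10. Without the replicate block they were 45, all of them among the 58, and with DESeq2 66. Without single libraries they were between 32 (without Activator replicate 3) and 64 (without Activator replicate 1), with 35 without Control replicate 2. List genes that passed were 19, and became 12 with mitochondrial scaling and 29 with the 6 uninduced libraries alone.

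The log2 ratio of chromosome 2 shares, -0.137, became -0.11 without the 10 genes of highest count, and -0.17 to -0.114 without single libraries. The counts of genes that passed again at later stages stayed within 1.5 times, between 25 and 48, under all alternatives run. Without Control replicate 1 at 6 h, 61 genes were called and 22 list genes passed. The fitted values of GSAT_MM without single replicates were 1.03 to 1.44.

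Signs changed where values were near 0 or counts very low. Rela was 0.0281 with plain library size, 0.0247 with mitochondrial scaling, 0.00066 with repeats added to library size, and from -0.0465 to 0.0428 without single libraries, above 0 without Control replicate 1 and without Activator replicate 2 (0.0148). Gm10721 ran from -2.26 (without Activator replicate 1) to 3.19, with -0.448 without Control replicate 3. ZP3AR was -0.00894 with TMM from repeat counts, and without single replicates IMPB_01 ran from -0.0384 to 0.14 and MMSAT4 from -0.119 to 0.0177, with the sign changed without replicate 3. The causes were not tested.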

Other observations

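A few listed genes that the report does not describe stood apart at low counts. Usp17la, a ubiquitin protease of the list of 2-cell-stage genes, had 7.52, 8.06 and 5.15 normalised counts in Control and 39.5, 31.0 and 12.3 in Activator libraries (log2 fold change 2.02 ± 0.49, adjusted p = 0.0293 by edgeR), and it has many close copies. It was 1 of 15 tested genes of that list to pass. The endothelial receptor gene Tek had 39.1, 49.7 and 14.4 against 58.8, 104 and 106 (adjusted p = 0.0313), and the keratin gene Krt14 had 13.5, 16.1 and 17.5 against 59.7, 41.3 and 50.3 (adjusted p = 0.00147). These were the only members to pass in the endothelial and epithelial marker lists, of 6 and 4 tested, where 1.22% of all genes tested passed. Summed endothelial markers ran from 45.3 to 61.6 in Control and from 83.5 to 143 in Activator libraries, with none of the 7 at 0. Tek was the highest of them, with a mean of 62 over the 6 libraries. Log2 fold changes of the 6 tested endothelial markers ran from -1.44 to 3.59, and the groups did not overlap for 1 of them. The part of such cells in the other differences was not tested.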
